A study of Homo sapiens with 18 samples.

Results

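The 37 genes described here encode the integrins of adherent cells and the proteins of the focal adhesion, the plaque that ties integrins to the actin cytoskeleton. They were picked by gene symbol: 11 alpha integrin subunits (ITGA1, ITGA2, ITGA3, ITGA4, ITGA5, ITGA6, ITGA7, ITGA8, ITGA10, ITGA11 and ITGAV), 5 beta subunits (ITGB1, ITGB3, ITGB4, ITGB5 and ITGB8), TLN1, TLN2 and VCL, 7 genes of LIM-domain, kindlin and ILK-complex proteins (PXN, ZYX, TGFB1I1, LIMS1, PARVA, ILK and FERMT2), 5 kinases and scaffolds (PTK2, SRC, FYN, BCAR1 and CRK), 5 tensins and actin cross-linkers (TNS1, TNS3, ACTN1, ACTN4 and FLNA), and the ligand FN1. All 37 were found among the 56269 rows of the deposited table of normalized read counts. A mean of at least 10 normalized read counts over the 18 libraries was required for testing, which left 35 of the 37 genes and 13686 genes in all. ITGA8, at 0 to 2.1 normalized read counts across libraries, and ITGB4, at 2.1 to 21, were below that mean and were not tested.

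RNA-seq had been carried out on IMR90 cells, primary human lung fibroblasts of a single line, in 6 groups of 3 biological replicates. For 6 h the cells had been given PBS, or 20 ug/ml of hyaluronan (HA) from naked mole-rat skin fibroblasts (NSF), either control-treated and of very high molecular mass (cNSF-HA) or partially fragmented with a hyaluronidase of Streptomyces (fNSF-HA). Cells of the groups PBS, cNSF and fNSF were collected after this pre-incubation. In the other 3 groups (PBS_tBHP, cNSF_tBHP and fNSF_tBHP) the HA was removed, 200 uM tert-butyl hydroperoxide (tBHP), an organic peroxide that causes oxidative stress, was given for 1 h, and cells were collected 6 h after the exposure had begun. The tBHP groups therefore also differ from the others by the later collection and the change of medium, and in every tBHP response below the effects of peroxide, time and medium cannot be told apart. Likewise, in such bulk samples fewer cells of a kind and less RNA per cell cannot be told apart.

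Integrins are heterodimers of an alpha and a beta subunit that bind extracellular matrix outside the cell and, through talin, kindlin and vinculin, actin inside it. ITGB1 pairs with most alpha subunits, giving receptors for collagens (with ITGA1, ITGA2, ITGA10 and ITGA11), laminins (ITGA3, ITGA6 and ITGA7) and fibronectin (ITGA4, ITGA5 and ITGA8), while ITGAV also pairs with ITGB3, ITGB5 and ITGB8. Bound integrins gather focal adhesion kinase (PTK2), Src-family kinases and adaptors that carry the signal onward, and in fibroblasts these contacts mature under tension as actin stress fibres form. HA itself is bound mainly by CD44 rather than by integrins.

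The libraries held 20261103 to 26287660 reads. The median within-group SD of log2 values over all genes tested was 0.063 to 0.070 without tBHP and 0.15 to 0.22 after it. Of 3 libraries that stood apart, replicate 2 of fNSF_tBHP had 69.4% of its deviation from the other tBHP libraries, over genes, following transcript GC content and length, replicate 1 of PBS_tBHP 44.4% and replicate 3 of cNSF_tBHP 43.9%, against at most 27.3% in any other library, so many results after tBHP are also given without them. All 10 fibroblast markers were present (summed level 490059 to 750857 normalized read counts), whereas of the other cell types' markers KRT5, SFTPC and CDH5 were at 0 in every library and EPCAM, CDH1, PECAM1, KDR, PTPRC, CD3E and MYH11 did not exceed 5.9. Markers present at some level were KRT18 (920.1 to 1778) and KRT19 (76.6 to 196) of epithelium, ACTG2 (4949 to 6634) and DES (12.1 to 32.7) of smooth muscle, VWF (at least 3.73) of endothelium, and CD68 and CD14 (at most 12.6) of leukocytes. Some of these lists moved with tBHP: the summed epithelial markers read 1759 to 1976 in the 9 libraries without tBHP and 1002 to 1726 in the 9 with it, with no overlap. The endothelial sum was 6.52 to 14.8 without and 13.1 to 25.1 with tBHP, the leukocyte sum 3.73 to 7.82 and 4.38 to 19.0, and the smooth muscle sum 6059 to 6658 and 4968 to 6650. The part of these markers in the tBHP responses was not tested.

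In unstressed PBS cells the adhesion genes spanned a wide range of expression. To compare genes, normalized read counts were divided by the length of the longest coding transcript. Fibronectin, FN1, the matrix ligand, was highest at 62272 ± 624 normalized reads per kb (SD, n = 3), followed by the common beta subunit ITGB1 at 14871 ± 167, the actin cross-linkers FLNA at 13482 ± 98.8 and ACTN1 at 7724 ± 2.22, zyxin (ZYX) at 5417 ± 85.5 and the fibronectin receptor subunit ITGA5 at 4367 ± 49.7. ITGB1 made up 90.6% ± 0.20 of the 5 beta subunits per kb and ITGB5 8.77% ± 0.21. Among the 11 alpha subunits ITGA5 held 38.0% ± 0.58, ITGA2 18.5% ± 0.62, ITGA6 17.0% ± 0.22 and ITGA3 13.7% ± 0.28. At the lower end were CRK at 57.4 ± 3.42, ITGA10 at 22.2 ± 4.64, ITGB8 at 7.57 ± 1.20, ITGA11 at 3.11 ± 0.40, ITGB4 at 1.18 ± 0.18 and ITGA8 at 0.046 ± 0.080 normalized reads per kb. In the order of these levels only VCL and ACTN4, LIMS1 and ITGA4, and FYN and ITGB3 were neighbours whose 3 libraries overlapped.

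**Figure D1:**
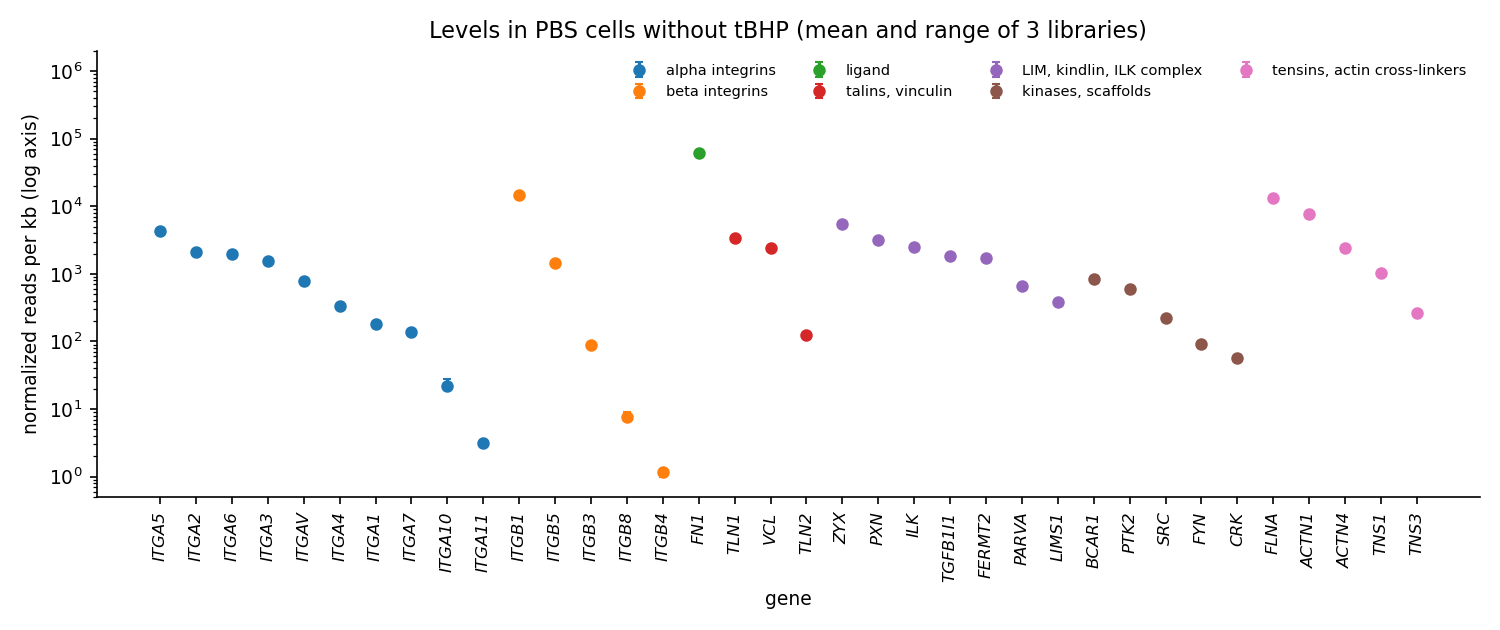
Levels of the adhesion genes in unstressed PBS cells, in normalized reads per kb on a log axis, with genes along the horizontal axis grouped by role. Points are means and bars the range of 3 libraries, and ITGA8, which was at 0 in some libraries, is not drawn. FN1 at 62272, ITGB1 at 14871 and FLNA at 13482 lie highest, and ITGB8, ITGA11 and ITGB4 lie below 10 normalized reads per kb.

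The promoters were searched for short elements linked to adhesion genes or to HA signalling. RefSeq promoter windows on GRCh38.p14, from 250 bases before to 50 bases after each start site, were available for 30 of the 37 genes (58 windows), and ITGA3, ITGA7, ITGB3, ITGB4, PARVA, PTK2 and SRC were not searched here. The CArG box, bound by serum response factor, was found on either strand in 3 of the 58 windows (5.172%), against 1.293% of all 35116 windows. GGAATG, the element of TEAD factors, was in 8 of 58 (13.793%) against 14.033%, and CCTGCG, an element linked to the intracellular domain of the HA receptor CD44, in 12 of 58 (20.69%) against 23.496%. No match of one element overlapped that of another. The 3 CArG boxes, in capitals below, lay before a start site of FLNA (chrX:154374679-154374768, minus strand), ACTN1 (chr14:68977688-68977777, minus strand) and TGFB1I1 (chr16:31473144-31473173, plus strand). Of the CCTGCG matches, the 2 of ITGA4 are shown (chr2:181457262-181457287 and chr2:181457325-181457350, plus strand). The element was found in genes that moved in either direction or in none, such as ITGA4, ITGA1, ITGA6 and ITGB8, which fell in every tBHP response, FYN, which rose in every one, and LIMS1, TNS1 and ACTN4, which were not called. The TGFB1I1 and ITGA4 stretches lie in exons of the same gene.
FLNA: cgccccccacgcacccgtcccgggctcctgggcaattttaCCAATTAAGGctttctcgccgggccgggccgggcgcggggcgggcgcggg
ACTN1: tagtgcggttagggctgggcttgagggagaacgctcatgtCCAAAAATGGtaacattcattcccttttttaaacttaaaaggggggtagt
TGFB1I1: tggaggggagCCAAATTTGGcttgggtgaa
ITGA4 first: ggacgcgagtCCTGCGcagccgaggt
ITGA4 second: ggagcccggcCCTGCGcctccgcacc
These 3 CArG genes did not move together after tBHP: log2 responses in PBS, cNSF-HA and fNSF-HA cells were -0.13, -0.23 and -0.49 for FLNA, -0.17, -0.19 and -0.31 for ACTN1, and 0.40, 0.38 and 0.10 for TGFB1I1, in part past the test as given below.

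After tBHP the adhesion genes split: the Src-family kinases SRC and FYN and focal adhesion kinase PTK2 rose, while the laminin, collagen and fibronectin receptor subunits ITGA6, ITGA1 and ITGA4, ITGB8, talin 2 (TLN2) and vinculin (VCL) fell, in cells of all 3 pre-incubations. In PBS cells 10 of the 35 genes tested were higher and 7 lower (limma, adjusted p under 0.05 over all genes), against 51.1% of all genes called, 24.2% higher and 26.9% lower. After cNSF-HA 6 were higher and 10 lower (all genes 50.8%, 24% higher and 26.8% lower). After fNSF-HA these were 6 and 9 (all genes 41.9%, 19.2% higher and 22.7% lower). The shares called, 17, 16 and 15 of 35, were near those of all genes, and so were the median log2 responses of the 35 genes, -0.022, -0.0091 and -0.031, beside 0.0043, -0.00053 and -0.034 over all genes. With quantile normalization the split was 6 higher and 11 lower for PBS (all genes 51.5% called) and 4 higher and 13 lower for cNSF-HA (51.6%). Leaving out replicate 1 of PBS_tBHP gave 6 higher and 7 lower for PBS (all genes 44% called), leaving out replicate 3 of cNSF_tBHP gave 7 and 8 for cNSF-HA (45.3%), and leaving out replicate 2 of fNSF_tBHP gave 10 and 12 for fNSF-HA (50.6%).

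Of the 35 genes, FYN, SRC and PTK2 were called higher in all 3 (14.6% of all genes), and ITGA1, ITGA4, ITGA6, ITGB8, TLN2 and VCL lower in all 3 (17.9% of all genes). For those 9 genes every tBHP library lay on the same side of every unstressed library. The same held for TNS3 and ACTN1, both below, so that 8 genes had all 9 tBHP libraries below all 9 others (15.3% of all genes) and 3 had them above (12.5%). Within a pre-incubation, tBHP and unstressed libraries did not overlap in 13 genes that were higher and 11 lower for PBS (63.8% of all genes did not overlap), 9 and 14 for cNSF-HA (63.7%), and 7 and 11 for fNSF-HA (48.7%).

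**Figure D2:**
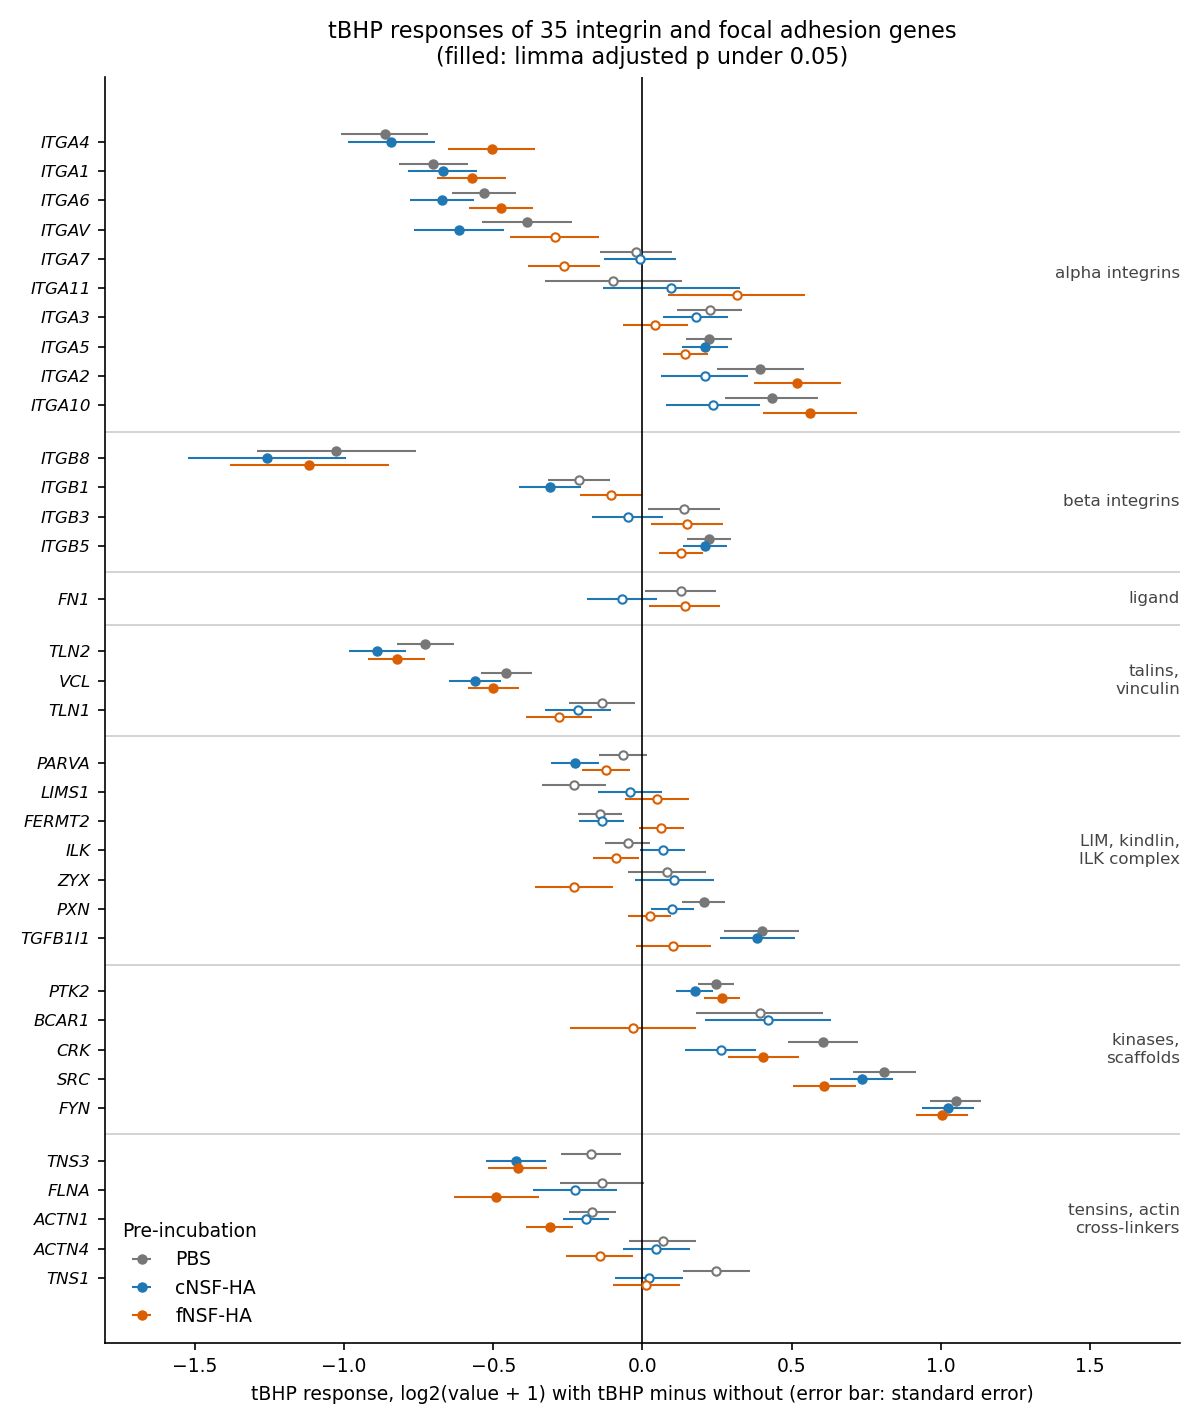
tBHP responses of the 35 genes tested, as the difference of log2(value + 1) with and without tBHP on the horizontal axis, for each gene and pre-incubation. Bars are standard errors and filled points have a limma adjusted p under 0.05. FYN lies near 1 and ITGB8 beyond -1 in all 3 pre-incubations, and most other genes lie between -0.9 and 0.9.

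Among the 10 alpha integrins tested, 3, 1 and 2 rose after PBS, cNSF-HA and fNSF-HA pre-incubation, and 4, 4 and 3 fell, beside 51.1%, 50.8% and 41.9% of all genes called in either direction. By GENCODE 29 on GRCh38, ITGA1 lies at chr5:52787896-52959210, ITGA4 at chr2:181457202-181536187 and ITGA6 at chr2:172427354-172506282, all on the plus strand. In normalized read counts, here and below in the order of replicates 1 to 3, ITGA1, a collagen receptor subunit, was at 1929, 1921 and 2008 in PBS, 1797, 1924 and 1799 in cNSF-HA and 2066, 2101 and 2024 in fNSF-HA libraries without tBHP. ITGA1 after tBHP read 1046, 1294 and 1279 with PBS, 1228, 1258 and 999 with cNSF-HA and 1382, 1686 and 1147 with fNSF-HA. All 9 tBHP libraries were below all 9 others, and its log2 responses in PBS, cNSF-HA and fNSF-HA cells were -0.70, -0.67 and -0.57 (standard error 0.12, adjusted p = 7.61e-05, 0.000127 and 0.000675). ITGA4, a fibronectin and VCAM1 receptor subunit, read 1341, 1503 and 1392 in PBS, 1335, 1391 and 1247 in cNSF-HA and 1372, 1391 and 1426 in fNSF-HA libraries without tBHP. ITGA4 after tBHP read 767, 819 and 741 with PBS, 847, 869 and 546 with cNSF-HA and 949.7, 1220.1 and 821 with fNSF-HA. It too showed no overlap, with the highest tBHP value in replicate 2 of fNSF_tBHP and the lowest in replicate 3 of cNSF_tBHP, and log2 responses of -0.86, -0.84 and -0.50 (standard error 0.15, adjusted p = 9.03e-05, 0.000126 and 0.00954). ITGA6, a laminin receptor subunit, read 11028, 10868 and 11090.3 in PBS, 10519.9, 10916 and 10909 in cNSF-HA and 11341, 11714 and 11756 in fNSF-HA libraries without tBHP. ITGA6 after tBHP read 7011, 8286 and 7577 with PBS, 7152, 7464 and 5819 with cNSF-HA and 8152, 10189.7 and 7010.1 with fNSF-HA. ITGA6 had log2 responses of -0.53, -0.67 and -0.47 (standard error 0.11, adjusted p = 0.000494, 5.60e-05 and 0.00166). Its share of the 11 alpha subunits per kb was 17.0% ± 0.22 in PBS cells and 11.2% ± 1.26 after tBHP, 10.6% ± 0.39 after cNSF-HA and tBHP, and 12.1% ± 1.82 after fNSF-HA and tBHP.

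ITGAV, the subunit of vitronectin receptors, read 5189, 5656 and 5763 in PBS, 5169, 5299 and 5552 in cNSF-HA and 5747, 5805 and 5816 in fNSF-HA libraries without tBHP. ITGAV after tBHP read 3856, 4818 and 4076 with PBS, 3880.1, 4050.2 and 2695 with cNSF-HA and 4641, 6112 and 3712 with fNSF-HA. It fell by 0.39 in PBS and 0.61 in cNSF-HA cells on the log2 scale (standard error 0.15, adjusted p = 0.0388 and 0.00240), whereas in fNSF-HA cells, where replicate 2 was above every unstressed library, the response of -0.29 was not called (adjusted p = 0.127). The fall in PBS cells lost its call without replicate 2 or 3 of PBS or replicate 1 or 3 of PBS_tBHP (-0.37 to -0.32), and the response in fNSF-HA cells gained one without replicate 2 of fNSF_tBHP (-0.48).

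The opposite direction was seen for the collagen receptor subunits ITGA2 and ITGA10. ITGA2 read 16100.3, 17329 and 16879.7 in PBS, 15337, 15687 and 16105 in cNSF-HA and 16265, 17389 and 17010.0 in fNSF-HA libraries without tBHP. ITGA2 after tBHP read 20762, 23684 and 21794 with PBS, 21452, 20558 and 13553 with cNSF-HA and 23664, 30788 and 19438 with fNSF-HA. Replicate 3 of cNSF_tBHP lay below the unstressed libraries while the other 8 tBHP libraries lay above them, and the log2 responses were 0.40, 0.21 and 0.52 (standard error 0.15, adjusted p = 0.0312, 0.247 and 0.00819). ITGA10 read 104, 102 and 145 in PBS, 115, 128 and 96.2 in cNSF-HA and 116, 111 and 90.4 in fNSF-HA libraries without tBHP. ITGA10 after tBHP read 139.6, 163 and 167 with PBS, 142, 118 and 139 with cNSF-HA and 153, 176 and 141 with fNSF-HA. ITGA10 had log2 responses of 0.43, 0.24 and 0.56 (standard error 0.16, adjusted p = 0.0281, 0.220 and 0.00768). For ITGA10 a library of each PBS group overlapped the other group. The calls in PBS cells were lost for ITGA2 without any 1 of the 3 PBS libraries or of replicates 2 and 3 of PBS_tBHP (0.34 to 0.42), and for ITGA10 without replicate 1 or 2 of PBS or 2 or 3 of PBS_tBHP (0.34 to 0.40). ITGA2 in cNSF-HA cells was called at 0.42 without replicate 3 of cNSF_tBHP, and in fNSF-HA cells it was 0.35, still called, without replicate 2 of fNSF_tBHP.

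ITGA5, the main fibronectin receptor subunit, had log2 responses of 0.22, 0.21 and 0.14 (standard error 0.076, adjusted p = 0.0200, 0.0276 and 0.140), and quantile normalization turned that in cNSF-HA cells to -0.011. Its calls were lost in PBS cells without replicate 2 or 3 of PBS or 1 of PBS_tBHP (0.14 to 0.22) and in cNSF-HA cells without replicate 2 or 3 of cNSF or 1 or 2 of cNSF_tBHP (0.18 to 0.21). The laminin receptor subunits ITGA3 (log2 responses 0.23, 0.18 and 0.043) and ITGA7 (-0.022, -0.0091 and -0.26) and the collagen receptor subunit ITGA11 (-0.097, 0.096 and 0.32, standard error 0.23) were called in none.

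Of the beta subunits, ITGB8, partner of ITGAV in a receptor that activates latent TGF-beta, had the largest log2 change among the 35 genes in cells of each pre-incubation except PBS, where that of FYN was larger. It read 59.9, 78.4 and 60.5 in PBS, 46.8, 45.9 and 54.8 in cNSF-HA and 65.7, 52.2 and 69.9 in fNSF-HA libraries without tBHP. ITGB8 after tBHP read 27.2, 35.9 and 32.8 with PBS, 23.2, 22.3 and 15.2 with cNSF-HA and 28.9, 44.7 and 17.1 with fNSF-HA. The groups did not overlap, the values were low, and the log2 responses of -1.03, -1.26 and -1.12 (standard error 0.27, adjusted p = 0.00366, 0.000749 and 0.00247) were on the log2(value + 1) scale, which understates the change of low genes. ITGB1, the common beta subunit, read 55600.0, 56854 and 56364 in PBS, 54782, 54937 and 55158 in cNSF-HA and 56778, 57835 and 58434 in fNSF-HA libraries without tBHP. ITGB1 after tBHP read 43977, 51911 and 50079 with PBS, 48039.6, 47639.8 and 38167 with cNSF-HA and 52459, 64676 and 45305 with fNSF-HA. It fell by 0.31 on the log2 scale in cNSF-HA cells (standard error 0.10, adjusted p = 0.0193), a call lost without replicate 3 of cNSF_tBHP (-0.20). The response was -0.21 in PBS cells (adjusted p = 0.0952) and -0.11 in fNSF-HA cells (adjusted p = 0.438), the latter being -0.24 and called without replicate 2 of fNSF_tBHP and 0.014 without replicate 3.

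ITGB5, the beta subunit that makes a vitronectin receptor with ITGAV, had responses of 0.22, 0.21 and 0.13 (standard error 0.073, adjusted p = 0.0175, 0.0240 and 0.174). Its calls were lost in PBS cells without replicate 3 of PBS or 1 of PBS_tBHP (0.15 to 0.20) and in cNSF-HA cells without replicate 2 or 3 of cNSF or 1 or 3 of cNSF_tBHP (0.19 to 0.20). ITGB3, which with ITGAV binds vitronectin and fibronectin, was called in no response (0.14, -0.050 and 0.15, standard error 0.12), and 51.6% of its exon bases lie in another gene model on the same strand. As a share of the beta subunits per kb, ITGB1 was at 87.7% ± 1.82, 86.6% ± 1.73 and 89.1% ± 2.54 after tBHP in PBS, cNSF-HA and fNSF-HA cells, and ITGB5 at 11.6% ± 1.74, 12.7% ± 1.77 and 10.2% ± 2.51.

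TLN2 and VCL, which couple integrins to actin, fell in all 3 responses, and TLN1, the more abundant talin, was called in none (-0.14, -0.22 and -0.28, standard error 0.11). With a trend of GC content and length removed from every library TLN1 was called lower in all 3 (-0.25, -0.19 and -0.19). That trend was relative to the mean of the libraries with the same tBHP state. A trend shared by all tBHP libraries therefore stays in the responses. TLN2 lies at chr15:62390526-62844631 and VCL at chr10:73995193-74121363, both on the plus strand. TLN2 read 1488, 1475 and 1467 in PBS, 1598, 1538 and 1486 in cNSF-HA and 1611, 1582 and 1559 in fNSF-HA libraries without tBHP. TLN2 after tBHP read 919, 932 and 827 with PBS, 941, 905 and 676 with cNSF-HA and 912, 914 and 858 with fNSF-HA. TLN2 had log2 responses of -0.73, -0.89 and -0.82 (standard error 0.095, adjusted p = 6.05e-06, 7.06e-07 and 1.88e-06). VCL, the vinculin gene, read 15807, 15815 and 15916 in PBS, 15340.4, 15537 and 15647 in cNSF-HA and 16037, 16047 and 15873 in fNSF-HA libraries without tBHP. VCL after tBHP read 11469.8, 12053 and 11160.3 with PBS, 11719, 11388 and 8702 with cNSF-HA and 11514, 12137 and 10339 with fNSF-HA. VCL had log2 responses of -0.46, -0.56 and -0.50 (standard error 0.086, adjusted p = 0.000274, 3.84e-05 and 0.000148). Both had tight unstressed groups far above every tBHP library, and both calls held with any library left out. Of the exon bases of VCL, 11.1% are shared with AP3M1, a neighbouring gene.

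Most LIM-domain, kindlin and ILK-complex genes were not called after tBHP: of 7, 2 rose with PBS, 1 rose and 1 fell with cNSF-HA, and none passed the test with fNSF-HA, beside 51.1%, 50.8% and 41.9% of all genes called. TGFB1I1, encoding the paxillin relative Hic-5, read 3557, 3564 and 3523 in PBS, 3816, 3656 and 3767 in cNSF-HA and 3553, 3498 and 3513 in fNSF-HA libraries without tBHP. TGFB1I1 after tBHP read 5267, 4379 and 4443 with PBS, 4728, 4632 and 5341 with cNSF-HA and 3886, 2870.0 and 4853 with fNSF-HA. Its log2 responses were 0.40, 0.38 and 0.10 (standard error 0.13, adjusted p = 0.0128, 0.0160 and 0.540), and the lowest tBHP value, in replicate 2 of fNSF_tBHP, was below every unstressed library. The calls were lost without replicate 1 of PBS_tBHP (0.31) and without replicate 3 of cNSF_tBHP (0.32). With the GC and length trend removed from every library the response in fNSF-HA cells was 0.31 and was called. Paxillin, PXN, of whose exon bases 12.4% lie in 2 other genes, the antisense gene PXN-AS1 having the larger overlap, rose by 0.21 on the log2 scale in PBS cells (adjusted p = 0.0249), a call that was lost without any 1 of the PBS libraries or replicate 1 of PBS_tBHP (0.16 to 0.21), and its responses to tBHP were 0.10 and 0.024 after cNSF-HA and fNSF-HA. PARVA, alpha-parvin of the ILK complex, fell by 0.23 in cNSF-HA cells (adjusted p = 0.0253), lost without replicate 1 or 2 of cNSF or 3 of cNSF_tBHP (-0.23 to -0.15). ZYX (0.082, 0.11 and -0.23), FERMT2, which encodes kindlin-2 (-0.14, -0.14 and 0.063), LIMS1, which encodes the ILK partner PINCH (-0.23, -0.040 and 0.048), and ILK itself (-0.049, 0.068 and -0.089) were called in no response. Of ILK, 78.5% of exon bases lie in other genes, TAF10 on the other strand having the largest overlap, so that its count is uncertain under unstranded counting. LIMS1 has near-identical copies in the genome, and whether they share its reads was not examined.

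The kinases and scaffolds gave no call in the lower direction: after PBS, cNSF-HA and fNSF-HA pre-incubation 4, 3 and 4 of 5 rose, beside 24.2%, 24% and 19.2% of all genes. FYN, a Src-family kinase at chr6:111660332-111873452 on the minus strand, read 360.2, 317 and 329 in PBS, 356, 297 and 299.8 in cNSF-HA and 329, 359 and 362 in fNSF-HA libraries without tBHP. FYN after tBHP read 693, 714 and 677 with PBS, 630.3, 651 and 653 with cNSF-HA and 752, 699.9 and 657 with fNSF-HA. It was 2.07-fold higher in PBS cells, with log2 responses of 1.05, 1.02 and 1.00 (standard error 0.086, adjusted p = 2.36e-08, 3.69e-08 and 5.01e-08). SRC, at chr20:37344685-37406050 on the plus strand, read 1034, 1024 and 999 in PBS, 1089, 1044 and 987 in cNSF-HA and 1033, 1039.6 and 1004 in fNSF-HA libraries without tBHP. SRC after tBHP read 1949, 1707 and 1716 with PBS, 1697, 1807 and 1686 with cNSF-HA and 1623, 1246 and 1896 with fNSF-HA. SRC had log2 responses of 0.81, 0.73 and 0.61 (standard error 0.11, adjusted p = 6.36e-06, 2.10e-05 and 0.000167). In both genes all tBHP libraries were above all others, and replicate 2 of fNSF_tBHP gave the lowest tBHP value of SRC.

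PTK2, focal adhesion kinase, read 2943, 3028 and 3015 in PBS, 3009.5, 3066 and 2958 in cNSF-HA and 3166, 3131 and 3162 in fNSF-HA libraries without tBHP. PTK2 after tBHP read 3420.4, 3622 and 3613 with PBS, 3464, 3573 and 3170.4 with cNSF-HA and 3782, 4042 and 3574 with fNSF-HA. All tBHP libraries were above all others, though by less than for FYN and SRC, and the log2 responses were 0.25, 0.17 and 0.27 (standard error 0.061, adjusted p = 0.00267, 0.0231 and 0.00175). The call in cNSF-HA cells was lost without replicate 1 or 3 of cNSF or 1 or 2 of cNSF_tBHP (0.14 to 0.17). The adaptor CRK read 235, 225 and 208 in PBS, 223, 228 and 253 in cNSF-HA and 218, 195 and 200.3 in fNSF-HA libraries without tBHP. CRK after tBHP read 354, 356 and 309 with PBS, 309, 318 and 227 with cNSF-HA and 249.9, 283 and 280.2 with fNSF-HA. Replicate 3 of cNSF_tBHP and replicate 1 of fNSF_tBHP lay within the range of the unstressed libraries, and log2 responses were 0.61, 0.26 and 0.40 (standard error 0.12, adjusted p = 0.000375, 0.0744 and 0.0105). Without replicate 3 of cNSF_tBHP the response in cNSF-HA cells was called at 0.42. BCAR1, the scaffold p130Cas to which CRK binds, had responses of 0.39, 0.42 and -0.031 (standard error 0.21, adjusted p = 0.131, 0.106 and 0.921), in fNSF-HA cells over a spread of 3472, 1956 and 5066 normalized read counts. With the GC and length trend removed these were 0.27, 0.33 and 0.18, all 3 called and the last with its sign changed.

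**Figure D3:**
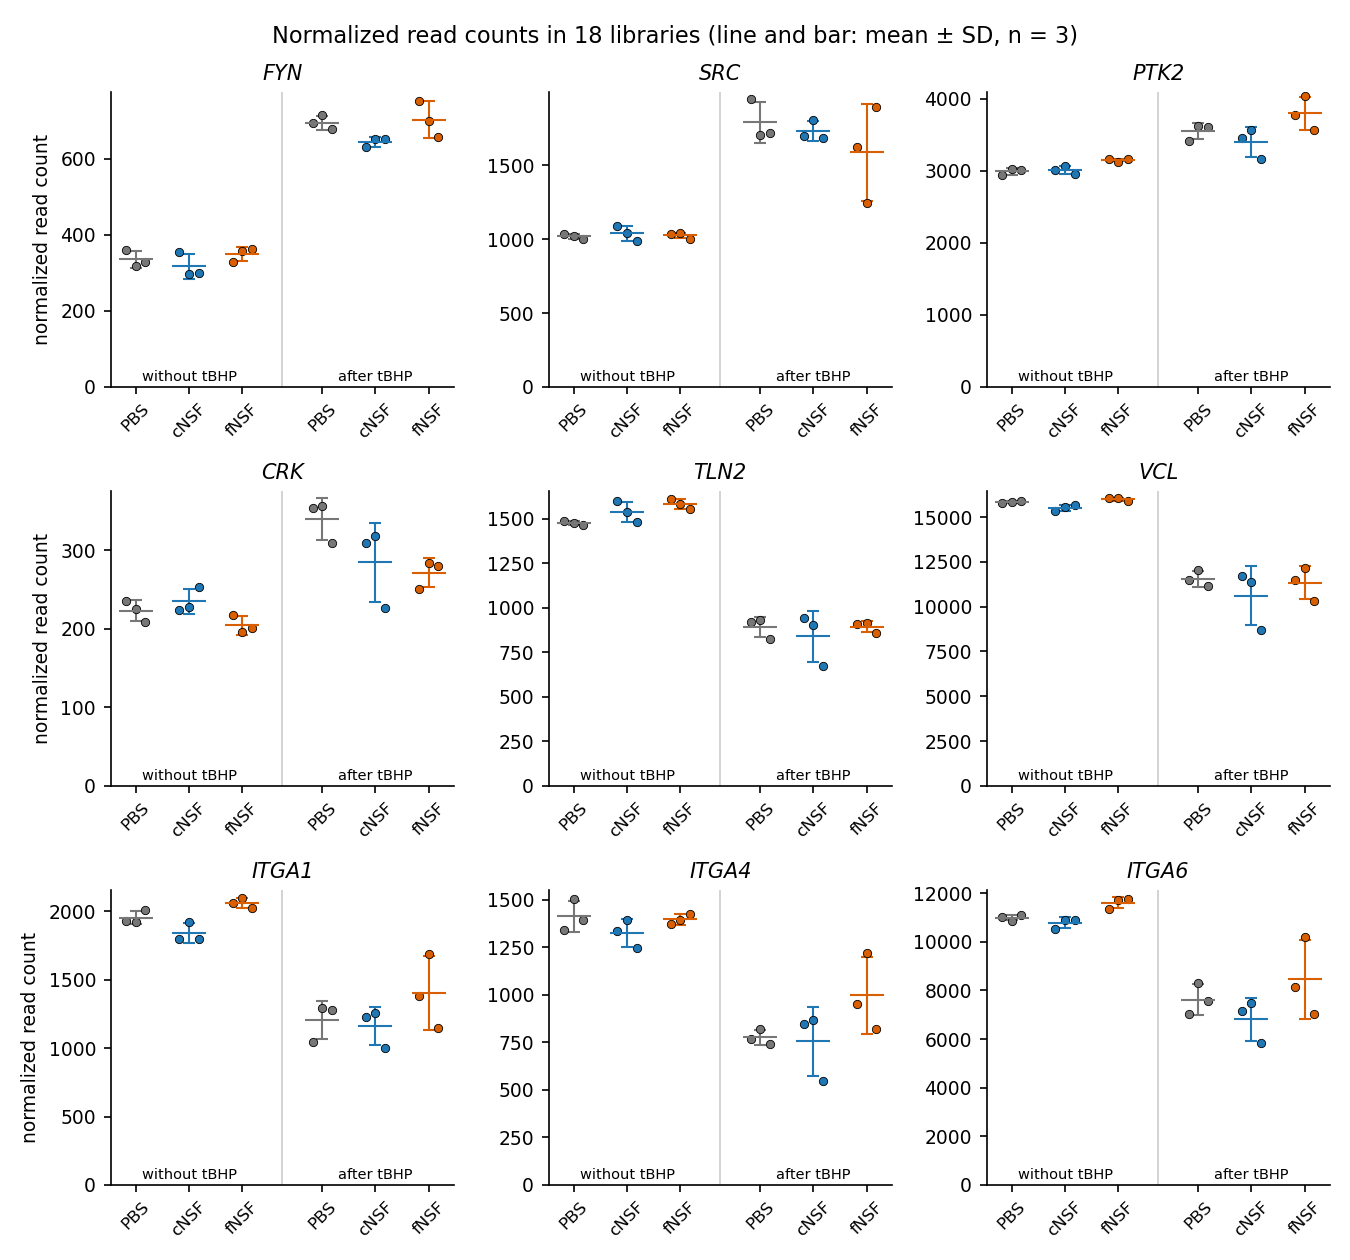
Normalized read counts of FYN, SRC, PTK2, CRK, TLN2, VCL, ITGA1, ITGA4 and ITGA6 in each of 18 libraries, by group on the horizontal axis, with tBHP groups at the right of each panel. Points are libraries and lines with bars the mean ± SD of 3. Apart from CRK, tBHP libraries lie on 1 side of all others, and the tBHP groups are more spread.

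Tensins and actin cross-linkers rose in none of the responses, and 0, 1 and 3 of 5 fell, in the same order of pre-incubations, beside 26.9%, 26.8% and 22.7% of all genes. TNS3, tensin 3, read 2037, 1998 and 1893 in PBS, 2107, 1955 and 2013 in cNSF-HA and 2043, 1975 and 2078 in fNSF-HA libraries without tBHP. TNS3 after tBHP read 1876, 1811 and 1584 with PBS, 1716, 1604 and 1247 with cNSF-HA and 1577, 1376 and 1619.5 with fNSF-HA. All tBHP libraries were below all others and the log2 responses were -0.17, -0.42 and -0.42 (standard error 0.10, adjusted p = 0.158, 0.00182 and 0.00253). ACTN1, alpha-actinin 1, likewise did not overlap, at responses of -0.17, -0.19 and -0.31 (standard error 0.078, adjusted p = 0.0809, 0.0517 and 0.00373). FLNA, filamin A, read 115195, 115393 and 113847 in PBS, 120964, 117779 and 117986 in cNSF-HA and 119366, 111677 and 117394 in fNSF-HA libraries without tBHP. FLNA after tBHP read 125484, 96977 and 93975 with PBS, 110723, 107990.0 and 87798 with cNSF-HA and 89022, 61299.7 and 103640.0 with fNSF-HA. Replicate 1 of PBS_tBHP was above and replicate 2 of fNSF_tBHP far below the other tBHP libraries, and of its log2 responses, -0.13, -0.23 and -0.49 (standard error 0.14, adjusted p = 0.446, 0.192 and 0.00964), the last was lost as a call when only the compared groups were fitted and was -0.27, still called, without replicate 2 of fNSF_tBHP. Tensin 1, TNS1 (0.25, 0.022 and 0.013), and alpha-actinin 4, ACTN4 (0.067, 0.046 and -0.14), were called in no response. With the GC and length trend removed TNS3, ACTN1 and FLNA were called lower in all 3 responses, FLNA at -0.29, -0.24 and -0.32. TNS1 was then called higher in PBS cells (0.12).

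FN1, the ligand, was called in no response. It read 556651, 548228 and 558710.0 in PBS, 544861, 552172 and 548896 in cNSF-HA and 550308, 556989 and 566693 in fNSF-HA libraries without tBHP. FN1 after tBHP read 644058, 610446 and 566147 with PBS, 631283, 575382 and 394014 with cNSF-HA and 619774, 671996 and 559638 with fNSF-HA. Its log2 responses were 0.13, -0.069 and 0.14 (standard error 0.12, adjusted p = 0.382, 0.646 and 0.362), with replicate 3 of cNSF_tBHP far below all other libraries. Without that library the response in cNSF-HA cells was 0.14, and it was also above 0 with weights per library, edgeR or removal of the GC and length trend.

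Pre-incubation with HA alone was then compared with PBS, to ask whether HA had changed adhesion genes before the stress. No gene of the 35 was called for cNSF-HA or fNSF-HA against PBS, nor for cNSF-HA against fNSF-HA, and no gene of all tested was either (0% of all genes each). At an unadjusted p under 0.05 there were 0 of 35 in each, beside 0.921%, 0.796% and 1.51% of all genes. DESeq2 and edgeR on the recovered reads called 0 of 35 as well, beside at most 0.0219% of all genes. The PBS libraries are shared by the first and second comparisons. Log2 differences of the 35 genes spanned -0.42 to 0.096 for cNSF-HA minus PBS, -0.18 to 0.14 for fNSF-HA minus PBS and -0.34 to 0.20 for cNSF-HA minus fNSF-HA, with standard errors of 0.061 to 0.27 that the more variable tBHP libraries helped to set.

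In unstressed cells 3 genes were higher and 9 lower in all cNSF-HA than in all fNSF-HA libraries (25% of all genes did not overlap), against 8 genes for cNSF-HA and 7 for fNSF-HA compared with PBS (15.2% and 14% of all genes). The smallest unadjusted p was that of LIMS1, at 1379, 1527 and 1613 after cNSF-HA, 1769, 1787 and 1667 after fNSF-HA and 1594, 1779 and 1812 normalized read counts after PBS, and after tBHP at 1349, 1602 and 1477 with PBS, 1437, 1462 and 1486 with cNSF-HA and 1717, 2222 and 1527 with fNSF-HA (log2 difference -0.21 ± 0.11 SE for cNSF-HA minus fNSF-HA, limma unadjusted p = 0.0643). Its cNSF-HA libraries were below those of fNSF-HA. CRK (0.20), FYN (-0.14) and ITGA1 (-0.17) came next, FYN with overlapping groups. When only these 6 libraries were fitted, 7 of the 35 genes were called, LIMS1, ITGA1, ITGA2, ITGA6, ITGAV and ITGB1 lower and BCAR1 higher after cNSF-HA, beside 7.16% of all genes. The genes called lower had transcripts of 38.3% to 42.9% GC, and BCAR1 one of 64.9%. Over the 35 genes the differences had a Pearson r of 0.66 and a Spearman rho of 0.76 with GC content. With a GC and length trend removed these were 0.087 and 0.0081, a fall that the removal itself largely brings about. Whether GC-dependent recovery of reads set these calls was not tested.

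After tBHP the same comparisons ask whether pre-incubation changed the stressed state. Against PBS no gene of the 35 was called after cNSF-HA (0% of all genes) or fNSF-HA (0.139%). On the recovered reads DESeq2 and edgeR called none of the 35 either, beside 0.0658% and 0% of all genes for cNSF-HA and 3.3% and 0.263% for fNSF-HA. At an unadjusted p under 0.05, 3 were lower after cNSF-HA (8.64% of all genes): ITGB8, CRK and TNS3, with log2 differences of -0.65 ± 0.27 SE, -0.27 ± 0.12 and -0.22 ± 0.10 (limma adjusted p = 0.558, 0.567 and 0.574). After fNSF-HA, 10 passed that level, 3 higher and 7 lower (22.7% of all genes). The smallest p was that of ITGA7, a laminin receptor subunit, with a difference of -0.40 ± 0.12 SE (adjusted p = 0.118) or -0.16 with the GC and length trend removed. Over the 35 genes the differences for fNSF-HA had a Pearson r of -0.75 with transcript GC content, and of 0.21 with that trend removed. For cNSF-HA these were 0.55 and 0.33. Only ITGB8 and FYN, both lower, had cNSF_tBHP and PBS_tBHP libraries that did not overlap (9.57% of all genes), and ITGA4 (higher), CRK and TNS1 (lower) did so for fNSF_tBHP (12%). Without replicate 3 of fNSF_tBHP, 5 of the 35 genes were higher and 7 lower for fNSF-HA (29.4% of all genes called).

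The central comparison of the study, cNSF-HA against fNSF-HA after tBHP, also gave no call by limma among the 35 genes (0% of all genes), with a smallest adjusted p of 0.0981. DESeq2, the method of the study, called 1 of the 35 on the recovered reads, FERMT2, beside 5.79% of all genes, and edgeR called 0, beside 0%. At an unadjusted p under 0.05, ITGA1, ITGA2, ITGA4, ITGA6, ITGAV, ITGB1, ITGB3, FERMT2, LIMS1 and PTK2 were lower and ITGA7, BCAR1, FLNA, TGFB1I1 and ZYX higher after cNSF-HA, 15 of 35 beside 32.2% of all genes. The log2 differences of the 35 genes ran from -0.48 to 0.58, with a median of -0.10 (all genes -0.029). Only 4 genes, LIMS1, FERMT2, PTK2 and FYN, had all cNSF_tBHP libraries below all fNSF_tBHP libraries and none above, beside 13.4% of all genes without overlap.

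FERMT2, kindlin-2, which activates integrins together with talin, read 5217, 5328 and 4686 in cNSF_tBHP, 6089, 6825 and 5340.4 in fNSF_tBHP and 4972, 5461 and 5081 in PBS_tBHP libraries. FERMT2 without tBHP read 5697, 5737 and 5666 in PBS, 5547, 5574 and 5595 in cNSF-HA and 5825, 5749 and 5808 in fNSF-HA libraries, which lay closer together. Its log2 difference was -0.26 ± 0.075 SE (adjusted p = 0.0981), the largest relative to its error. ITGAV, with the tBHP values given above, differed by -0.44 ± 0.15 (adjusted p = 0.0981), and ITGA4 and ITGA2 by -0.41 and -0.41. In the other direction ZYX read 14604, 14384 and 16102 in cNSF_tBHP, 12275, 8367 and 14838 in fNSF_tBHP and 15802, 13452 and 13739 in PBS_tBHP libraries. ZYX without tBHP read 13548, 13692 and 13272 in PBS, 14419.7, 13539 and 13878 in cNSF-HA and 13969, 13252 and 13265 in fNSF-HA libraries. Its log2 difference between cNSF-HA and fNSF-HA after tBHP was 0.38 ± 0.13 (adjusted p = 0.0981). TGFB1I1 differed by 0.37 ± 0.13 (adjusted p = 0.0981) and BCAR1, at 4693, 4748 and 5114 against 3472, 1956 and 5066, by 0.58 ± 0.21 (adjusted p = 0.101). In all of these but FERMT2 the fNSF_tBHP libraries reached into the range of the cNSF_tBHP libraries, with replicate 2 of fNSF_tBHP the most extreme. Without that library the differences were 0.15 for ZYX, 0.17 for TGFB1I1, -0.25 for ITGAV and -0.17 for FERMT2, and without replicate 3 of cNSF_tBHP 0.33, 0.31, -0.25 and -0.20. Without replicate 3 of fNSF_tBHP they were 0.57, 0.55, -0.61 and -0.35, and all 4 were called.

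The size and sign of these differences moved with the GC content of the transcripts. Over the 35 genes the log2 difference had a Pearson r of 0.90 and a Spearman rho of 0.91 with GC content, a description across genes that share the same 6 libraries. With a trend of GC content and length removed from every library, r was 0.12 and rho 0.14. The removal itself largely brings about this fall, whatever set the trend. The differences then came to -0.072 for FERMT2, -0.13 for ITGAV, 0.15 for BCAR1 and 0.019 for FLNA, with -0.26 for ITGA4 and -0.30 for ITGB3, and those of ZYX (-0.089) and TGFB1I1 (-0.092) changed sign. Other genes, among them ITGA1, ITGA3 and ITGA5, also changed sign. No member was called then either.

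By library, the 15 genes with at least 55% GC had a median deviation of -0.41 log2 from the mean of the tBHP libraries in replicate 2 of fNSF_tBHP, and the 11 genes with at most 45% GC one of 0.44. In replicate 1 of PBS_tBHP these medians were 0.25 and -0.11, and in replicate 3 of cNSF_tBHP -0.079 and -0.35. The number of genes called for cNSF-HA against fNSF-HA after tBHP stayed at 0 without replicate 2 of fNSF_tBHP or without replicate 3 of cNSF_tBHP, and was 19 (8 higher and 11 lower, beside 40.8% of all genes) without replicate 3 of fNSF_tBHP, the library whose GC trend ran against that of replicate 2. Whether GC-dependent recovery of reads or a response of the cells set these differences was not tested.

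**Figure D4:**
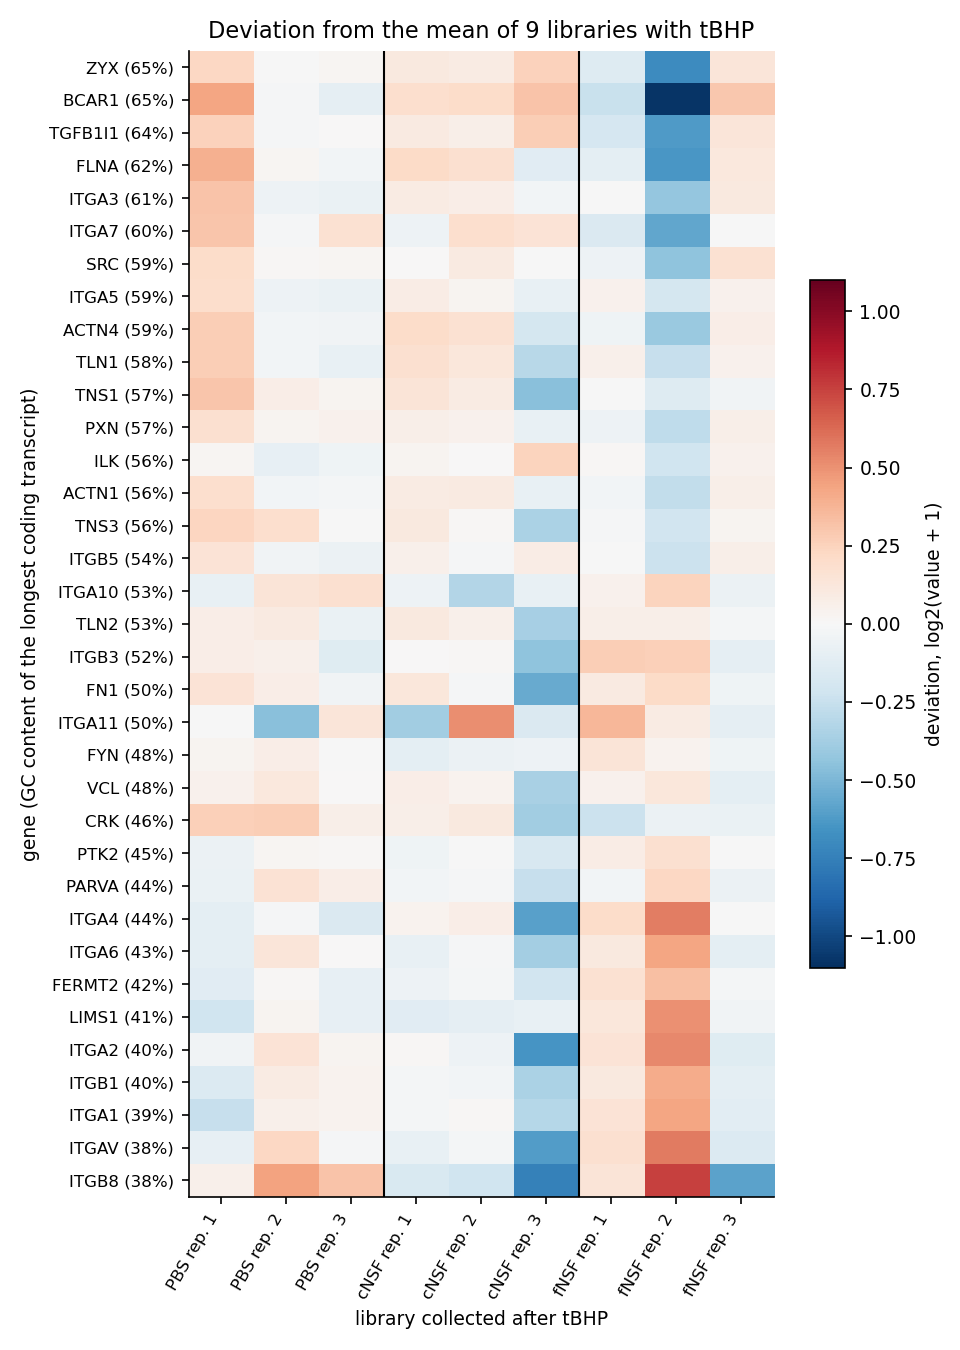
Deviation of each gene from the mean of 9 tBHP libraries, on the log2(value + 1) scale, for 35 genes (rows, ordered by the GC content given in percent) and 9 libraries (columns). Red is above and blue below the mean. In replicate 2 of fNSF_tBHP GC-rich genes lie below the mean and GC-poor genes above it, with the reverse in replicate 1 of PBS_tBHP.

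**Figure D5:**
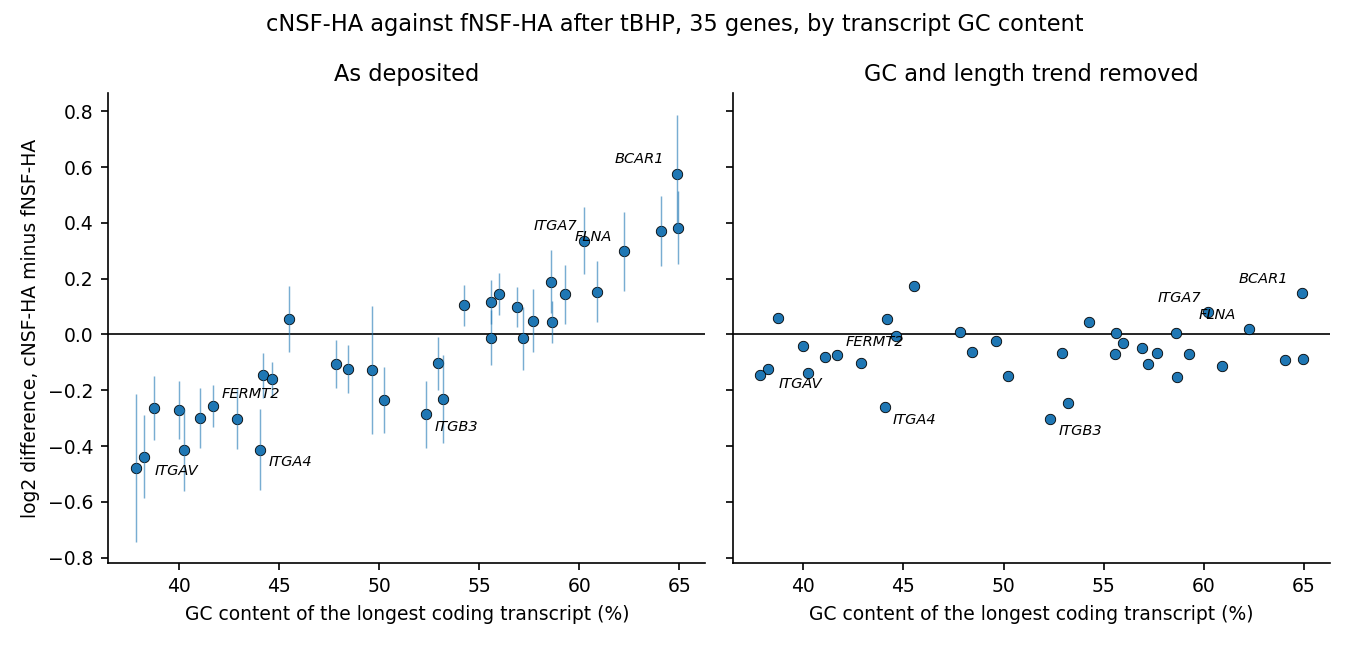
Log2 difference between cNSF-HA and fNSF-HA after tBHP (vertical axis) against GC content of the longest coding transcript in percent (horizontal axis) for 35 genes, as measured on the left and with the GC and length trend removed on the right. Each point is a gene. The points climb from about -0.48 to 0.58 on the left (r = 0.90) and show little slope on the right (r = 0.12). The removal itself largely brings about the smaller slope.

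Whether the tBHP responses themselves differed between pre-incubations was tested as an interaction. None of the 35 genes was called for any of the 3 differences by limma (0% of all genes each), DESeq2 or edgeR (at most 0.0438%), nor did any reach an unadjusted p under 0.05 by limma, beside 4.06% of all genes for cNSF-HA minus PBS, 6.88% for fNSF-HA minus PBS and 3.89% for cNSF-HA minus fNSF-HA. CRK had the smallest p for cNSF-HA minus PBS, at -0.34 ± 0.17 SE on the log2 scale (limma unadjusted p = 0.0553). FERMT2 had it for fNSF-HA minus PBS (0.20 ± 0.11, unadjusted p = 0.0678) and for cNSF-HA minus fNSF-HA (-0.20 ± 0.11, unadjusted p = 0.0741). So calls made in 1 pre-incubation and missed in another, such as those of ITGAV, TGFB1I1 or TNS3, were not shown to differ between them.

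Genes that act beside the 37 were counted from lists. Of 28 other adhesion plaque genes that could be tested, 10, 10 and 5 rose after PBS, cNSF-HA and fNSF-HA, and 5, 7 and 8 fell, with median log2 responses of 0.12, 0.15 and -0.033. The called shares were 53.6%, 60.7% and 46.4%, beside 51.1%, 50.8% and 41.9% of all genes. FERMT3, the kindlin of blood cells, had log2 responses of 1.38, 1.55 and 0.73 (standard error 0.35, adjusted p = 0.00282, 0.00117 and 0.0984), and LDB3, a PDZ-LIM protein of muscle, of -0.91, -0.90 and -0.95 (standard error 0.30, adjusted p = 0.0174, 0.0184 and 0.0167). Both were low: PBS cells had means of 25.6 normalized read counts without and 68.1 with tBHP for FERMT3, and 27.6 and 13.6 for LDB3. Of 30 adhesion signalling genes, 8, 7 and 6 rose and 13, 12 and 7 fell in that order, with medians of -0.18, -0.19 and -0.11 and called shares of 70%, 63.3% and 43.3% beside the same shares of all genes. The Src-family kinase YES1 fell while SRC and FYN rose, at -0.68, -0.61 and -0.44 (standard error 0.13, adjusted p = 0.000229, 0.000601 and 0.00861). CASS4, of the p130Cas family, fell as well, at -0.71, -0.81 and -0.74 (standard error 0.21, adjusted p = 0.00939, 0.00414 and 0.00896), and the adaptor SHC1 rose, at 0.64, 0.55 and 0.51 (standard error 0.071, adjusted p = 1.08e-06, 6.73e-06 and 1.60e-05).

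Of 26 matrix ligands other than collagens, 4, 2 and 3 rose and 6, 9 and 6 fell, with medians of -0.12, -0.19 and -0.13. Here 38.5%, 42.3% and 34.6% were called, beside 51.1%, 50.8% and 41.9% of all genes. CTGF, a matricellular ligand that is also a target of mechanical signalling, fell at -0.91, -0.68 and -0.90 (standard error 0.050, adjusted p = 1.16e-10, 6.10e-09 and 1.58e-10), VWF had log2 responses of 1.32, 0.72 and 1.18 (standard error 0.40, adjusted p = 0.00982, 0.139 and 0.0225), and LAMA3, a laminin chain, of -0.96, -0.63 and -0.81 (standard error 0.40, adjusted p = 0.0524, 0.199 and 0.113). VWF and LAMA3 were low. In PBS cells VWF had means of 6.81 normalized read counts without and 18.5 with tBHP, and LAMA3 of 22.8 and 11.9. CTGF was at 33170 and 17644. Of 13 further genes named after integrins only 4 could be tested, and 2 fell in each response: ITGB3BP, which encodes a centromere protein, at -0.96, -0.93 and -0.59 (standard error 0.20, adjusted p = 0.000590, 0.000820 and 0.0224), and ITGBL1, a secreted protein resembling a beta subunit, at -0.66, -0.54 and -0.63 (standard error 0.090, adjusted p = 8.97e-06, 8.77e-05 and 2.20e-05), neither of them a subunit. ITGAE, a true alpha subunit, was at -0.085, 0.022 and -0.10 (standard error 0.10, adjusted p = 0.503, 0.868 and 0.440). No gene of these lists was called in a comparison between pre-incubations or in a difference of responses.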

How the data were processed

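RNA-seq libraries of 18 samples (TruSeq RNA V2, unstranded, single-end reads of 100 nt) were analysed from the table the authors deposited. Per the submitters' processing notes, reads were trimmed with Trimmomatic 0.32, aligned to GRCh38.p7 with STAR 2.5.2b and counted with featureCounts of Subread 1.5.0-p3, and the gene annotation is not given in the sources used here. The deposited values are gene counts divided by DESeq2 size factors, a signal proportional to reads. Of these values 100% were whole multiples of what 1 read was worth in a library (tolerance 0.01 read), which gave the depths. The authors' own p-value and q-value columns and ranking score columns, whose comparison is not named in the file, were deposited beside them and were not used.

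Groups came from the labels. Values were tested as log2(value + 1) with limma 3.58.1 (lmFit, then eBayes with trend) in R 4.3.3 on the 13686 genes with a mean of at least 10, with 1 coefficient per group over all 18 libraries, two-sided, with Benjamini-Hochberg adjustment over all genes and a threshold of 0.05, for 9 comparisons and 3 interactions. A pseudocount of 1 understates changes of low genes. GC content and length were those of the longest protein-coding transcript of GENCODE 29, known for 91.371% of genes tested, and the trend was a natural spline with 5 degrees of freedom fitted per library. DESeq2 1.42.0 and edgeR 4.0.16 were run on the recovered reads as alternatives. Scripts were tested on simulated data. Python 3.11.15 with pandas 2.3.3 and matplotlib 3.10.9 drew the figures. The replicates are biological per the methods, from 1 cell line. No identical pair of libraries was found.

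The 37 genes, the other gene lists and the tests were chosen with earlier results of these data known. Values in every library were to be given for the 12 genes with the largest mean tBHP response among those with a mean of at least 100, any called in an HA comparison or interaction (there was none), the 4 with the smallest p for cNSF-HA against fNSF-HA with and without tBHP, and the 3 with the highest values (FN1, FLNA and ITGB1). Other genes named with values outside this rule were chosen after their values were seen. The RefSeq promoter windows are of GRCh38.p14. The values of 1 gene of the adhesion plaque list are not reported here.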

Additional observations from a re-analysis of the deposited data

How the results depend on the processing

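Of 48 calls among the tBHP responses of single genes, 34 held under every setting tried, 14 were lost in at least 1 and 1 of them changed sign. For 68 results of single genes, 358 of 408 values with a library left out kept their direction and side of the threshold, 40 lost the call, 8 gained it and 2 changed sign, and over the other settings 754 of 813 did, 21 lost it, 29 gained it, 6 changed sign and 3 moved to 0 (FN1 under quantile normalization, where it was the most abundant gene). With weights per library the number of genes called rose to 27, 25 and 29 of 35 in the tBHP responses of PBS, cNSF-HA and fNSF-HA cells (62.8%, 66% and 71.6% of all genes), to 10 for fNSF-HA against PBS and 20 for cNSF-HA against fNSF-HA after tBHP (20.4% and 38.6%), and to 2 (FERMT2 and ITGA4) and 4 (ACTN4, FLNA, BCAR1 and ZYX) for the differences of responses fNSF-HA minus PBS and cNSF-HA minus fNSF-HA (7.61% and 7.09%). The weights of replicates 1 to 3 of fNSF_tBHP were 6.79, 0.102 and 0.236, so weighted calls that use this group rest mostly on its replicate 1. With the GC and length trend removed the number of genes called rose to 26, 25 and 25 in the responses (63.7%, 62.9% and 62.6% of all genes), with no call of a response lost. Fitting only the compared groups gave 7 for cNSF-HA against fNSF-HA without tBHP (7.16% of all genes), and DESeq2 gave 1 (FERMT2) after tBHP (5.79%). With a library left out the counts were 12 to 15, 13 to 15 and 15 to 22 in the 3 responses (43.7% to 49.2%, 43.3% to 48% and 34.9% to 50.6% of all genes), 0 to 12 for fNSF-HA against PBS (0% to 29.4%) and 0 to 19 for cNSF-HA against fNSF-HA after tBHP (0% to 40.8%). Signs changed for ITGA5 in cNSF-HA cells under quantile normalization (-0.011), for FN1 in cNSF-HA cells with weights (0.083), edgeR (0.020), the GC and length trend removed (0.022) or a library left out (-0.20 to 0.14), for ITGB1 in fNSF-HA cells with a library left out (-0.24 to 0.014), and for ZYX (-0.089) and TGFB1I1 (-0.092) in cNSF-HA against fNSF-HA after tBHP with the trend removed. In that comparison the signs of other genes, among them ITGA1, ITGA3 and ITGA5, changed as well with the trend removed. Removing the trend also turned the sign of responses that had not been called: BCAR1 in fNSF-HA cells, which was then called (0.18), ZYX and ACTN4 in PBS cells, ZYX and LIMS1 in cNSF-HA cells, and LIMS1 and FERMT2 in fNSF-HA cells. Where no value above shows it, the cause was not tested. A replicate number as block gave 17, 17 and 16 genes in the responses (52.8%, 52.4% and 43.4% of all genes) and 0 in all other comparisons (at most 0.446%). Deviations of samples with the same number correlated at -0.12 to 0.33, not above 0.1 in every pair, so the numbers were not taken to pair samples. Depth limits ITGB8 and ITGA11, and from the other lists FERMT3, LDB3, VWF and LAMA3, which rest on few reads. ITGA8 and ITGB4 were too low to test.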
